A study of Mus musculus with 12 samples.

Results

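Messenger RNA of hearts that carry the Flna deletion label was compared between embryos in which both Asb2 alleles were floxed and embryos in which only 1 was. The hearts came from mouse embryos at embryonic day 9.5, on the strain labelled C57/BL 6, and all carried a Cre driver labelled NkxCre. The double mutant group has the genotype label NkxCre.Asb2fl/fl.Flnafl/fl. The other group, labelled NkxCre.Asb2fl/+.Flnafl/fl, is called the Flna-labelled heterozygotes here, or the heterozygotes for short. A floxed allele is one that Cre recombinase can delete. A single floxed Asb2 allele, the floxed Flna label and the Cre driver are therefore shared by both groups, and the second floxed Asb2 allele is the labelled difference. The labels do not say in which cells the driver is active, nor whether a library is 1 heart or a pool. Each group has 3 libraries, 6 of the 12 in the series. The others are 3 controls with 1 floxed Asb2 allele (NkxCre.Asb2fl/+) and 3 with both Asb2 alleles floxed and no Flna label (NkxCre.Asb2fl/fl, called the Asb2 deletion group). The genes compared are those listed in the deposited tables of both Flna-labelled groups. Of 15663 genes in the series 14725 were listed for both, and 13935 of them averaged 1 CPM or more over these 6 libraries. CPM here is the normalized signal of the deposited tables, in which a library's reads are scaled to a near-common total. The gene nearest above the minimum was Pik3r6, at a mean of 1.00 CPM, and the nearest below it was Gm9726, at 0.999 CPM.

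ASB2 is the substrate-binding subunit of a cullin ubiquitin ligase, and filamins are the best known proteins it marks for degradation. Filamins crosslink actin filaments and tie them to membranes. Filamin A is widely expressed and filamin C belongs to striated muscle. At this stage the heart is a looped tube of muscle and endocardium, primitive red cells made in the yolk sac circulate through it, and its ventricles begin to form trabeculae. Because ASB2 acts on protein, a change in filamin protein need not show in filamin transcripts.

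The 6 libraries held 27484813 to 42473118 reads in listed genes, with 27484813 to 37303648 in the heterozygotes and 40780462 to 42473118 in the double mutant, so 1 read was worth 0.0239 to 0.0367 CPM. The first principal component carried 61% of the variance and separated the groups. The second carried 19.4% and set heterozygote library 3 (-34.5) and double mutant library 3 (-19.5) apart from the other 4 libraries (7.2 to 23.3), and results that rest on single libraries are given with and without them. The hemoglobin genes held 0.304 to 0.411% of all signal in the heterozygotes and 0.0332 to 0.0604% in the double mutant. This drop moves with the group in every result given here, and its part in them was not tested beyond a rescaling without the hemoglobin genes. That rescaling also set the libraries to equal totals over the other genes. Y-linked transcripts were present in all 6 libraries (Ddx3y at 68.3, 61.9 and 65.9 CPM in the heterozygotes and 73.1, 82.3 and 77.2 CPM in the double mutant), although the X-linked Flna is labelled fl/fl throughout. Xist, which marks embryos with more than 1 X chromosome, stood at 0.0506, 0.123 and 0.367 CPM in the heterozygotes and 0.0477, 0.546 and 9.34 CPM in the double mutant. Its level moved with double mutant library 3, and the part of embryo sex in the comparison was not tested beyond a fit with Xist as a covariate. Fold changes are differences of mean log2(CPM + 0.5), which understate the change of genes near 0, and p-values are limma's, adjusted by the Benjamini-Hochberg method over all genes tested, with a threshold of 0.05. Rose, fell, higher or lower of a gene counted in a list means past that threshold, with the double mutant set against the heterozygotes. As the labels do not call the libraries separate animals or pools, a p-value measures only how these libraries spread, which may be technical in part.

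Neither targeted gene passed the test for a difference in transcript level. Asb2 (ENSMUSG00000021200, GRCm38 chromosome 12, 103321142 to 103356001, minus strand) stood at 122, 121 and 153 CPM in the double mutant and 125, 113 and 197 CPM in the heterozygotes (log2 fold change -0.10, adjusted p = 0.738, SE 0.21). The groups overlapped, and heterozygote library 3 was the highest of the 6. Without that library the difference turned to 0.14. The controls were at 289, 183 and 218 CPM and the Asb2 deletion group at 77.8, 163 and 115 CPM, and that fall with no Flna label passed the test (-0.99, adjusted p = 0.0248), while the range of the heterozygotes overlapped both. Flna (ENSMUSG00000031328, X chromosome, 74223461 to 74249820, minus strand) was at 1012, 1012 and 1146 CPM in the double mutant and 958, 1010.5 and 989.5 CPM in the heterozygotes (log2 fold change 0.10, adjusted p = 0.478, SE 0.10). In the controls Flna was at 490.3, 554 and 721 CPM and in the Asb2 deletion group at 1032, 869 and 725 CPM, so all 6 Flna-labelled libraries lay above the 3 controls, although the label marks the gene as floxed. The ranges of both Flna-labelled groups did not overlap but nearly met, and the difference was -0.03 once a trend over gene length was removed. Counts over a whole gene cannot show whether single exons are missing, so the Flna deletion cannot be read from these levels, and every direction given here rests on the labels. In bulk tissue, fewer cells of a type and less RNA per cell cannot be told apart.

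Transcripts of the muscle filamin were higher in the double mutant. Flnc (ENSMUSG00000068699, chromosome 6, 29433256 to 29461883, plus strand) was at 852, 1176 and 1429 CPM in the double mutant against 441, 426 and 716 CPM in the heterozygotes (log2 fold change 1.14, adjusted p = 0.0122, SE 0.25). Double mutant library 1 came nearest to heterozygote library 3, without overlap. Of 29 genes of the ligase, the filamins and their partners 24 were tested, and 3 rose and 5 fell (15.2% and 16.3% of all genes), with a median log2 fold change of -0.11. Fblim1, a filamin-binding protein, was among those that rose, at 65.8, 79.3 and 86.8 against 57.003, 50.5 and 57.9 CPM (log2 fold change 0.48, adjusted p = 0.017, SE 0.12). Those that fell were Asb4 (-0.80), Asb6 (-0.42), Nedd8 (-0.52), the modifier that activates cullins, Ube2f (-0.43), a NEDD8-conjugating enzyme, and Tceb1 (-0.37), the elongin C adaptor. The 5 that fell were 3 without heterozygote library 1 or double mutant library 3 and 2 without double mutant library 2, and the 3 that rose were 5 without heterozygote library 3. Cul5, the cullin scaffold, did not pass (-0.21, adjusted p = 0.143).

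**Figure D1:**
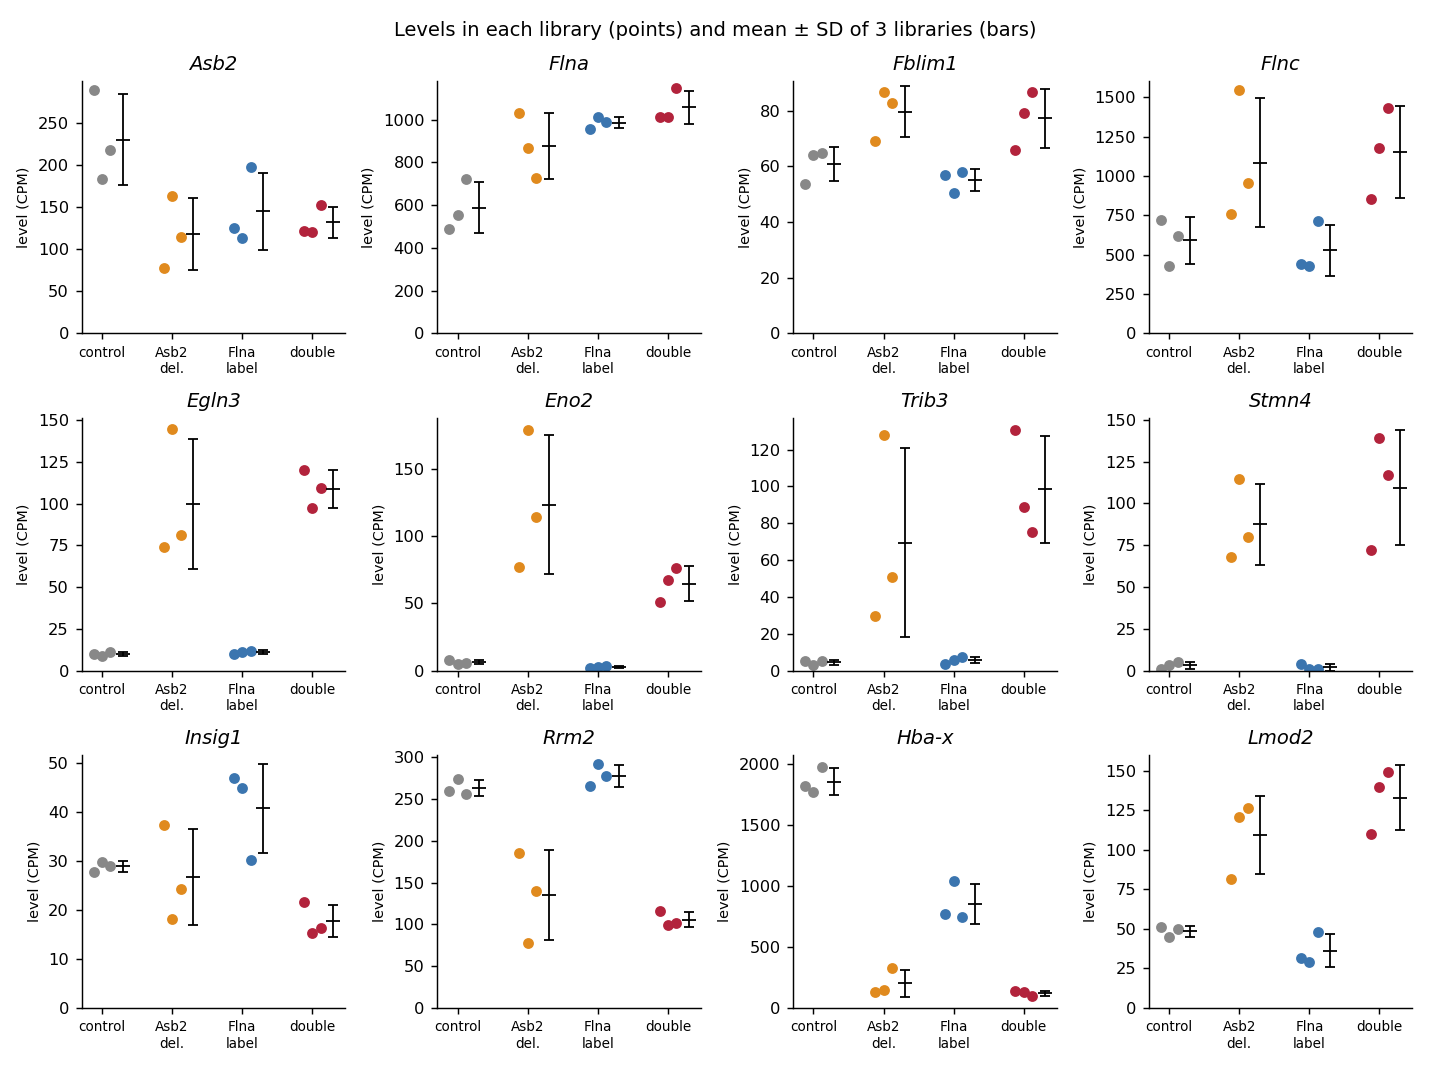
Level of 12 genes in CPM in each library of the 4 groups, with 1 point per library and bars for the mean and SD of 3 libraries. Asb2 overlaps between the heterozygotes and the double mutant and Flna lies at nearly the same level, while Egln3, Eno2, Trib3 and Stmn4 are higher in all 3 double mutant libraries and Insig1, Rrm2 and Hba-x are lower.

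Over all 13935 genes tested, 4383 (31.5%) differed between the groups, 2113 higher in the double mutant (15.2%) and 2270 lower (16.3%). The median was -0.02, with quartiles at -0.32 and 0.32. A change of at least 2-fold was reached by 613 of the higher and 329 of the lower genes. The groups did not overlap for 6613 genes (47.5%), in 3127 with the double mutant higher (22.4%) and in 3486 lower (25%). With so many genes past the threshold, the count of each gene list has to be read against these shares. The total was 2708 without double mutant library 2, 2770 without heterozygote library 2 and 2800 without heterozygote library 1. Rescaling without the hemoglobin genes gave 1697 higher and 2807 lower, that is 37.7% of calls higher against 48.2%, and moved the median of all genes to -0.10. It also set the libraries to equal totals over the other genes, in place of the deposited scaling (column sums of 942334 to 1051801). The hemoglobin genes held at most 0.411% of signal in these libraries, and their part in the shift was not tested apart from that of the totals.

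Among the 12 largest rises, 6 were of genes outside the hypoxia, glycolysis and stress lists described next. Stmn4, a tubulin-binding stathmin of neurons, went from 4.02, 0.923 and 0.735 CPM in the heterozygotes to 71.9, 139 and 117 CPM in the double mutant (log2 fold change 5.73, adjusted p = 0.000405, SE 0.49). All double mutant libraries were far above the heterozygotes, where it was near 1 CPM in libraries 2 and 3. Of the other markers of the neural tube, Nes rose (0.74, adjusted p = 0.0108), and Tubb3 (-1.78, adjusted p = 0.012) and Dcx (-1.95, adjusted p = 0.0226) fell. A2m, which encodes the protease inhibitor alpha-2-macroglobulin, went from 4.53, 5.35 and 3.31 to 50.3, 51.2 and 44.3 CPM (log2 fold change 3.35, adjusted p = 2.84e-05, SE 0.18). Dpp6, a subunit that modulates potassium channels, rose from 3.37, 1.94 and 2.72 to 26.6, 31.9 and 36.0 CPM (log2 fold change 3.35, adjusted p = 5.16e-05, SE 0.21). The long noncoding RNA Neat1, the scaffold of nuclear paraspeckles, was at 1.77, 1.60 and 1.62 CPM and then 20.4, 25.2 and 40.5 CPM (log2 fold change 3.70, adjusted p = 6.8e-05, SE 0.25). Nrn1, a neuritin (3.48, adjusted p = 6.8e-05), and Adamtsl5, a matrix protein (3.51, adjusted p = 0.000216), complete the 6, and none of these genes overlapped between groups. Adamtsl5 averaged 0.436 CPM in the heterozygotes and passed the minimum of 1 CPM only through the double mutant.

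**Figure D2:**
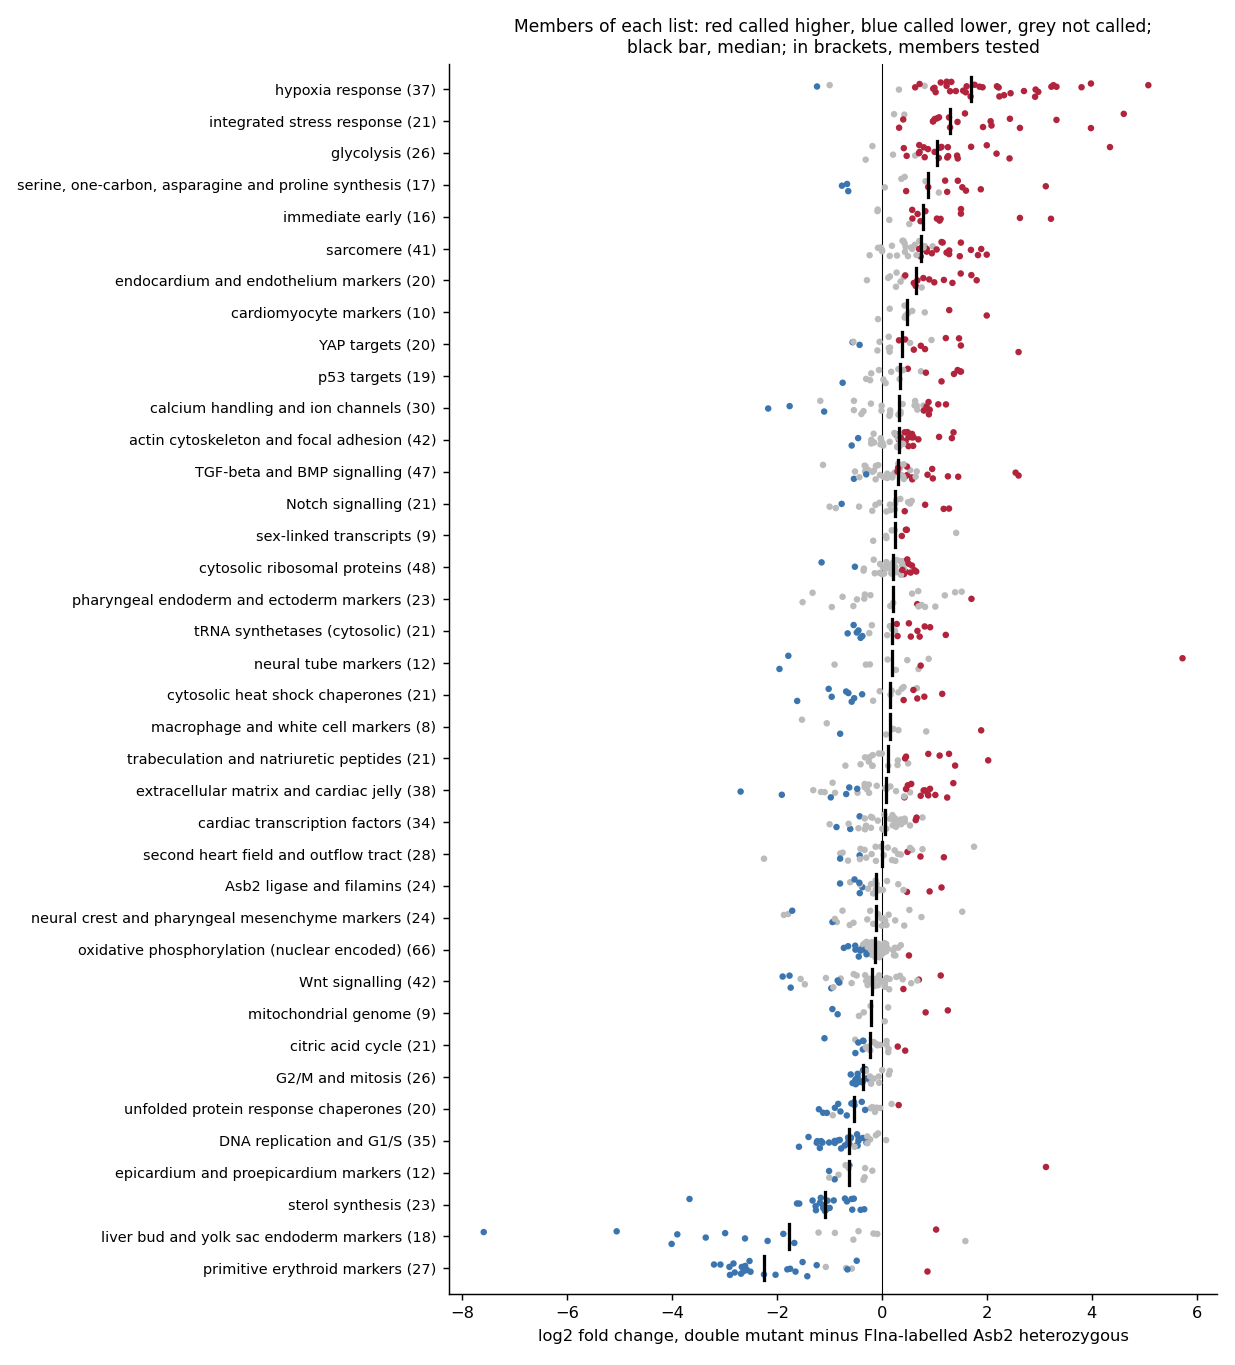
Log2 fold change of the double mutant over the heterozygotes for each tested member of 38 gene lists, 1 point per gene, red where higher, blue where lower and grey where the test was not passed, with a black bar at the list's median. Hypoxia, glycolysis and stress response lists lie to the right of 0, and sterol synthesis, G1/S and erythroid lists to the left.

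Cells short of oxygen keep the transcription factor HIF-1, which the EGLN prolyl hydroxylases otherwise mark for destruction. HIF-1 with its partner binds DNA at the core sequence ACGTG or GCGTG and turns on genes of glucose uptake, glycolysis, blood vessel growth and mitophagy. Of 37 tested genes of this response, 33 rose and 1 fell, with a median log2 fold change of 1.69 against -0.02 for all genes. The count that rose stayed between 31 and 33 when any library was left out. Glycolysis followed with 22 of 26 higher and 0 lower, and a median of 1.04.

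Promoters of members with large changes show where that core lies. The stretches are the bases before the transcription start site that hold no exon, from the RefSeq annotation of GRCm38.p6, with each match on either strand in capitals. For Stc2 the stretch is chr11:31370075-31370311 on the minus strand, with matches 240 and 231 bases before the start site. For Egln3 it is chr12:54203875-54204124 on the minus strand, with a match 229 bases before the start site.
Stc2: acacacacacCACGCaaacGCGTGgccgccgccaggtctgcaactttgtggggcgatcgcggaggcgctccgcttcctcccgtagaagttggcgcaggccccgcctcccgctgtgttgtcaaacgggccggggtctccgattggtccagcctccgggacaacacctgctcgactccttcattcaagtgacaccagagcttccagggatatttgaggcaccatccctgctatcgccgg
Egln3: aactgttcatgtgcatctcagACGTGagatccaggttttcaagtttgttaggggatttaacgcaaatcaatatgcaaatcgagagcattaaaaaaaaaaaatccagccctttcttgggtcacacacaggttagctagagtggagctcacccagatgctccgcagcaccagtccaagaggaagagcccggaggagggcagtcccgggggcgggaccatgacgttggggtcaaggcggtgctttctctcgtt
A RefSeq promoter was found for 27 of the 37 hypoxia genes, and 24 of these windows (88.9%) held ACGTG or GCGTG on either strand. Among the 25 glycolysis genes with a promoter 20 did (80%). The share was 41.5% over the promoters of 27025 genes and 62% over the 10175 tested genes that have one. Such a match describes the sequence and shows no binding.

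The oxygen sensors themselves were among the genes that rose. Egln3, the prolyl hydroxylase most induced by low oxygen, stood at 119.9, 97.1 and 109 CPM in the double mutant and 10.04, 11.3 and 11.97 CPM in the heterozygotes (log2 fold change 3.23, adjusted p = 3.28e-06, SE 0.12). The lowest double mutant library was several times above the highest heterozygote library. Egln1, the main oxygen-sensing hydroxylase, was at 542, 499 and 489 CPM against 144, 146 and 187 CPM (log2 fold change 1.69, adjusted p = 6.8e-05, SE 0.12). The transcript of Hif1a itself, which is regulated mostly as protein, was lower in the double mutant, at 187, 212 and 230.2 against 299.8, 291 and 375 CPM (log2 fold change -0.61, adjusted p = 0.00727, SE 0.12). Epas1, which encodes HIF-2 alpha, was higher (0.80, adjusted p = 0.00322). Neither group overlapped the other for these 4 genes.

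Secreted and mitochondrial targets of HIF rose strongly. Ndufa4l2, a hypoxia-induced mitochondrial protein, was at 85.5, 75.9 and 69.0 CPM against 1.42, 1.85 and 2.13 CPM (log2 fold change 5.08, adjusted p = 1.52e-06, SE 0.17). It was low in all heterozygotes, and the groups were far apart. Stc2, a secreted stanniocalcin, was at 139.9, 99.2 and 91.9 CPM against 6.35, 8.09 and 7.53 CPM (log2 fold change 3.81, adjusted p = 1.46e-05, SE 0.17). Vegfa, the growth factor of blood vessels, stood at 297, 292 and 302 CPM in the double mutant, a narrow range, and 50.6, 57.2 and 69.9 CPM in the heterozygotes (log2 fold change 2.33, adjusted p = 2.24e-05, SE 0.12). Adm, which encodes the vascular peptide adrenomedullin, showed the same separation (7.64, 11.01 and 13.4 to 50.7, 45.7 and 52.1 CPM, 2.19, adjusted p = 0.000198). Bnip3, a receptor for mitophagy, went from 75.5, 92.4 and 128 to 466, 443 and 449 CPM (2.23, adjusted p = 0.000192). P4ha2, a collagen prolyl hydroxylase, had one of the smallest p-values, with 336, 312 and 321 CPM against 56.6, 60.1 and 59.1 CPM (log2 fold change 2.45, adjusted p = 1.52e-06, SE 0.08). Car9, a carbonic anhydrase of hypoxic cells (3.27, adjusted p = 6.8e-05), Bhlhe40, a transcriptional repressor (2.93, adjusted p = 3.55e-05), and Ddit4, an inhibitor of mTORC1 (2.92, adjusted p = 0.000221), rose as well. Those that did not pass were Lox (0.81, adjusted p = 0.129), Pdk3 (0.32, adjusted p = 0.063) and Fam13a (-0.997, adjusted p = 0.0896). The single member that fell was Angptl4, an inhibitor of lipoprotein lipase (4.67, 1.61 and 1.46 against 6.63, 7.26 and 4.59 CPM, -1.24, adjusted p = 0.0393), and there the groups overlapped.

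In the glycolysis list the rise ran from glucose uptake to lactate export. Slc2a3, a glucose transporter, was at 1229.8, 1098 and 1127 CPM against 171, 279 and 338 CPM (log2 fold change 2.18, adjusted p = 0.000686, SE 0.23). Slc2a1, the transporter of most embryonic cells, was at 2168, 2428 and 2606 against 832, 852 and 1399.6 CPM (log2 fold change 1.26, adjusted p = 0.00294, SE 0.20), with heterozygote library 3 the highest of its group. Hk2, which traps glucose in the cell, went from 201, 240.1 and 331 to 806, 813 and 837 CPM (1.70, adjusted p = 0.000378). Isoforms of a step differed in the size of their change. Eno2, the neuronal enolase, was at 50.7, 67.2 and 76.2 against 1.77, 2.77 and 3.75 CPM (log2 fold change 4.35, adjusted p = 4.08e-05, SE 0.25), while the general enolase Eno1 had a log2 fold change of 0.72, with a near-identical copy in the genome that makes its count uncertain. The log2 fold change of Aldoc was 2.43 and that of Aldoa 1.11, and that of Pfkp 2.00 and of Pfkl 0.71, and these differences were not tested. Ldha, which makes lactate, was at 3140.4, 3186 and 3162 against 1613, 1881 and 2399.6 CPM (log2 fold change 0.71, adjusted p = 0.00904, SE 0.15), and Slc16a3, a lactate exporter, rose by 1.004. Pdk1, a kinase that inhibits pyruvate dehydrogenase and is counted in the hypoxia list, was higher too (1.41, adjusted p = 0.000376). Members of the glycolysis list that did not pass were Hk1, Pfkm, Pfkfb4 and Pgm1 (-0.31 to 0.63).

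The integrated stress response slows general translation and raises the factor ATF4, which with CEBP partners binds the sequence TGATGNAA and turns on genes of amino acid supply. Of 21 tested genes, 19 rose and 0 fell, and the median was 1.30. The count was 17 to 19 with any library left out. Promoters of 17 of the 21 genes were found, and 4 (23.5%) held TGATGNAA on either strand, in Atf3, Herpud1, Slc7a11 and Vldlr, against 3.91% of all genes and 2.35% of the tested genes. In the list of amino acid synthesis it was 3 of 14 (21.4%), in Asns, Got1 and Pycr1. Genes counted in several of the hypoxia, stress and sterol lists, such as Vldlr, were left out of the stretches shown. Of the other stress genes, both members with the largest changes and a match in an exon-free stretch are shown, with the match in capitals. The stretch of Atf3 is chr1:191183341-191183583 on the minus strand, with the match 110 bases before the start site. The stretch of Slc7a11 is chr3:50443615-50443863 on the minus strand, with matches 66 and 47 bases before it.
Atf3: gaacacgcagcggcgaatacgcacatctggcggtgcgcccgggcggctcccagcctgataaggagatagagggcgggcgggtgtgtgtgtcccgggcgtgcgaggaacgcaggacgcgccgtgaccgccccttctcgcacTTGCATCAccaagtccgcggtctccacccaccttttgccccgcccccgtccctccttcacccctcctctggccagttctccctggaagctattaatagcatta
Slc7a11: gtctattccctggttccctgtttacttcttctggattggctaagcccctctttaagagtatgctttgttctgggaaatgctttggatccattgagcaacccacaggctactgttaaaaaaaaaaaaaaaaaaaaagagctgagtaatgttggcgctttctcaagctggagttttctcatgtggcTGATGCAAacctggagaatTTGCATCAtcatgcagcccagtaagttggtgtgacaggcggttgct

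Regulators of the response rose. Trib3, a pseudokinase that is a target of ATF4 and CHOP, stood at 131, 89.1 and 75.3 CPM in the double mutant and 3.85, 5.91 and 7.57 CPM in the heterozygotes (log2 fold change 3.98, adjusted p = 0.000134, SE 0.27). Ddit3, which encodes CHOP, was at 41.6, 35.2 and 35.0 against 6.30, 4.74 and 8.89 CPM (log2 fold change 2.44, adjusted p = 0.000192, SE 0.21). Atf3, a factor downstream of ATF4, was at 62.5, 48.3 and 61.7 against 8.63, 9.04 and 8.74 CPM (log2 fold change 2.63, adjusted p = 2.24e-05, SE 0.13), the heterozygotes differing by less than 1 CPM. Atf4 itself, set mostly by its translation, changed less (154, 175 and 189 to 390.0, 345 and 309.6 CPM, 1.01, adjusted p = 0.000646). Sesn2, a leucine sensor that restrains mTORC1, rose from 19.3, 17.5 and 16.7 to 105, 65.8 and 67.1 CPM (2.09, adjusted p = 0.000219). Vldlr, a lipoprotein receptor counted in both the hypoxia and the stress list, had one of the smallest p-values of all genes, with 197, 185 and 199 CPM against 17.1, 19.0 and 20.5 CPM (log2 fold change 3.33, adjusted p = 1.52e-06, SE 0.10).

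Transporters that bring amino acids into the cell moved with them. The cationic amino acid transporter Slc7a3 was at 60.6, 42.9 and 36.5 CPM against 0.708, 2.00 and 1.73 CPM (log2 fold change 4.61, adjusted p = 6.8e-05, SE 0.30). Slc7a5, the carrier of large neutral amino acids, was at 312, 235 and 222 against 60.9, 67.2 and 70.9 CPM (log2 fold change 1.93, adjusted p = 6.8e-05, SE 0.13). Slc7a11, the cystine importer whose promoter is given above, was low in both, at 12.3, 7.35 and 5.002 and 1.95, 1.1995 and 1.29 CPM (log2 fold change 2.07, adjusted p = 0.00257, SE 0.33), and double mutant library 1 was the highest. Over the stress list that library had the highest median deviation from the mean of the 6, 1.05 against 0.58 and 0.49 in the other double mutants and -0.78 to -0.70 in the heterozygotes.

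Of 17 genes of serine, one-carbon, asparagine and proline synthesis, 9 rose and 3 fell (median 0.88). Shmt2, the mitochondrial serine hydroxymethyltransferase, was at 347, 266 and 242 against 103, 111 and 95.8 CPM (log2 fold change 1.45, adjusted p = 0.000273, SE 0.13), Mthfd2 rose by 1.21, Mthfd1l by 1.24 and Aldh1l2, which makes mitochondrial NADPH from folate, by 3.12. The cytosolic enzymes Shmt1 (-0.76, adjusted p = 0.00405) and Mthfd1 (-0.67, adjusted p = 0.00794) were among the 3 that fell. Asns, asparagine synthetase, was at 282, 201 and 172 CPM against 53.2, 63.6 and 56.2 CPM (log2 fold change 1.89, adjusted p = 0.000375, SE 0.17). The first steps of serine synthesis did not pass: Phgdh overlapped between groups (0.37, adjusted p = 0.284), and Psat1 did not overlap but spread from 131 to 302 CPM in the double mutant (0.83, adjusted p = 0.0551). The list of tRNA synthetases, which charge tRNAs with amino acids, split into 9 higher and 6 lower of 21 (median 0.19). Sars (1.22), Cars (0.92) and Iars (0.82) were at the top and Hars (-0.65), Farsb (-0.54) and Farsa (-0.48) at the bottom. All are cytosolic except the mitochondrial Fars2, which is among the 6 lower (-0.41, adjusted p = 0.0324). The 9 were 5 without heterozygote library 1 or double mutant library 2.

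Chaperones of the endoplasmic reticulum, which another branch of the stress response raises when proteins misfold there, went the other way. Of 20 tested, 12 fell and 1 rose (median -0.53), and 10 to 12 fell with any library left out. Hspa5, the master chaperone BiP, was at 1159, 1101 and 1151 CPM in the double mutant and 1899.5, 1673 and 1861 CPM in the heterozygotes (log2 fold change -0.67, adjusted p = 0.00215, SE 0.10). Sdf2l1, a BiP cofactor, was at 29.0, 26.1 and 32.6 against 69.2, 60.0 and 74.6 CPM (log2 fold change -1.20, adjusted p = 0.000405, SE 0.12). Hyou1, a nucleotide exchange factor for BiP (-0.90, adjusted p = 0.000295), and Creld2 (-1.12, adjusted p = 0.000427) fell without overlap. The member that rose was P4hb, protein disulfide isomerase and a subunit of the collagen hydroxylases (0.32, adjusted p = 0.0288). Xbp1, a transcription factor of that branch, did not pass (-0.13, adjusted p = 0.419).

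Sterol synthesis is controlled by the factor SREBP2, which works with NF-Y at CCAAT sequences and is held back by INSIG when sterols are plentiful. The 23 tested genes of the list all fell, against 16.3% of all genes, with a median of -1.09. With any library left out, 20 to 23 were lower. The RefSeq promoter was found for 15 of them, and all 15 held CCAAT on either strand, against 37.5% of all genes and 40.6% of the tested genes. The sterol element searched as TCACNCCAC was in 1 of 15, Hmgcs1, against 1.22% of all genes. The stretch of Insig1 is chr5:28071162-28071362 on the plus strand, with CCAAT, read here on the other strand, 216 bases before the start site. The stretch of Mvd is chr8:122443423-122443672 on the minus strand, with matches 60 and 27 bases before it.
Insig1: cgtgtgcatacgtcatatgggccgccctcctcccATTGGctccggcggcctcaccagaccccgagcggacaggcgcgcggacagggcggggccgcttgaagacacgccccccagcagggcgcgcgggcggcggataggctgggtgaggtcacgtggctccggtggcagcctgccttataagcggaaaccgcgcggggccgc
Mvd: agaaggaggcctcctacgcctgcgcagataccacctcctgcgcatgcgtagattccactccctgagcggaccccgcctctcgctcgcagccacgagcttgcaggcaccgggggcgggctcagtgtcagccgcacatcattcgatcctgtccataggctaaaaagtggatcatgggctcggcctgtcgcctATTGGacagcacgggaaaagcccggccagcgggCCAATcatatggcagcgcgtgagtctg

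The fall covered regulators and enzymes of the pathway. Insig1, the sterol-sensing brake and a target of SREBP2, was at 21.5, 15.3 and 16.3 CPM in the double mutant and 47.0, 44.8 and 30.3 CPM in the heterozygotes (log2 fold change -1.17, adjusted p = 0.00345, SE 0.20). Srebf2, which encodes SREBP2, changed least of the 23 (-0.34, adjusted p = 0.0297). Hmgcs1, an early enzyme of the pathway, was at 153, 147 and 156 against 297, 306 and 263 CPM (log2 fold change -0.92, adjusted p = 0.00033, SE 0.09). Mvd, which makes isopentenyl diphosphate, was at 15.4, 21.1 and 20.8 against 38.5, 42.4 and 41.7 CPM (log2 fold change -1.09, adjusted p = 0.00107, SE 0.14). None of these groups overlapped.

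In each list of mitochondrial genes most members did not pass the test. Of 66 nuclear genes of oxidative phosphorylation, 11 fell and 1 rose, with a median of -0.14. The lower count was near the share of all genes (16.3%), and the higher count was well under its share (15.2%). The 11 were 3 without heterozygote library 1 and 5 without heterozygote library 3, double mutant library 1 or double mutant library 3. Rescaling to equal totals without the hemoglobin genes gave 20. Cycs, cytochrome c (-0.73, adjusted p = 0.0288), and Cyc1 (-0.51, adjusted p = 0.0105), a subunit of complex III, fell, and Ndufa6 of complex I rose (0.51, adjusted p = 0.00537). Of 9 tested genes of the mitochondrial genome, the ribosomal RNAs mt-Rnr1 (1.26, adjusted p = 0.0184) and mt-Rnr2 (0.83, adjusted p = 0.0437) rose, and mt-Nd1 and mt-Cytb fell. mt-Nd1 was at 342, 366 and 414 CPM against 589, 659.9 and 773 CPM (log2 fold change -0.84, adjusted p = 0.00184, SE 0.12), and the lower genes were 4 without double mutant library 3. In the citric acid cycle 6 of 21 fell and 2 rose (median -0.22), and 2 fell without any 1 of heterozygote libraries 1 and 3 and double mutant libraries 1 and 2. Idh1, a cytosolic isocitrate dehydrogenase that makes NADPH, fell furthest, at 48.8, 47.6 and 53.5 against 114, 123 and 87.9 CPM (log2 fold change -1.10, adjusted p = 0.000743, SE 0.13). Pcx, pyruvate carboxylase, rose (0.44, adjusted p = 0.01).

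Genes of DNA replication and the G1/S transition were lower in the double mutant, 28 of 35 with 0 higher (median -0.63). With any library left out, 22 to 30 were lower. Ccne1, cyclin E1, which drives entry into S phase, stood at 28.3, 25.3 and 23.5 CPM in the double mutant and 78.0, 84.2 and 71.6 CPM in the heterozygotes (log2 fold change -1.58, adjusted p = 6.8e-05, SE 0.11). Rrm2, the subunit of ribonucleotide reductase that limits dNTP supply, was at 116, 98.6 and 102 against 266, 292 and 277 CPM (log2 fold change -1.40, adjusted p = 6.71e-05, SE 0.09). Fen1, which processes Okazaki fragments, fell from 139, 151 and 129 to 66.8, 57.5 and 53.8 CPM (-1.23, adjusted p = 0.000212). The groups were well apart for each of these. Mcm5 (-0.80), Mcm2 (-0.59) and Mcm6 (-0.46) of the replicative helicase changed less.

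Of 26 genes of mitosis 16 fell and 0 rose, with a median of -0.36. It was 9 without heterozygote library 2 and 9 without double mutant library 2. Ccnb1, the cyclin of mitotic entry, was at 69.0, 65.0 and 68.5 against 82.4, 96.1 and 102 CPM (log2 fold change -0.46, adjusted p = 0.00968, SE 0.10). Mki67, the proliferation marker Ki-67, overlapped between groups, at 274, 278 and 304 and 271, 303 and 279 CPM (0.00, adjusted p = 0.976), and so did Top2a (-0.06, adjusted p = 0.635). Among 19 targets of p53, 7 rose and 1 fell (median 0.34). Cdkn1a, the cell cycle inhibitor p21, was at 52.996, 48.1 and 46.9 against 19.7, 17.3 and 16.5 CPM (log2 fold change 1.44, adjusted p = 0.000134, SE 0.11), with close values within each group. Bbc3, the pro-apoptotic PUMA, went from 6.88, 6.27 and 7.27 to 19.3, 20.5 and 20.2 CPM (1.49, adjusted p = 0.000262), and Btg2, an antiproliferative gene, from 24.4, 19.6 and 24.3 to 57.8, 65.6 and 73.6 CPM (1.51, adjusted p = 0.000216). Other targets did not pass, among them Mdm2 (0.18, adjusted p = 0.194) and Ccng1 (0.34, adjusted p = 0.0534), and Aen fell (-0.75, adjusted p = 0.00731).

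Sarcomere genes, which build the contractile unit, were higher in part, 19 of 41 with 0 lower and a median of 0.74. This count rests on single libraries. It was 11 without heterozygote library 1, 10 without heterozygote library 2, 10 without double mutant library 2, 12 without double mutant library 3 and 33 without heterozygote library 3. The list's median deviation per library was -0.47, -0.73 and 0.14 in the heterozygotes and -0.03, 0.53 and 0.62 in the double mutant, so heterozygote library 3 lay above double mutant library 1. Of 10 cardiomyocyte markers 2 were higher, near the share of all genes (15.2%), and 8 did not pass. Their summed level was 26730 to 42060 CPM in the double mutant and 16990 to 31680 CPM in the heterozygotes, so the ranges overlapped. The part of cardiomyocyte content in these values was not tested. The 2 of 10 were 0 without double mutant library 2, 1 without heterozygote library 1 or 2 and 8 without heterozygote library 3.

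**Figure D3:**
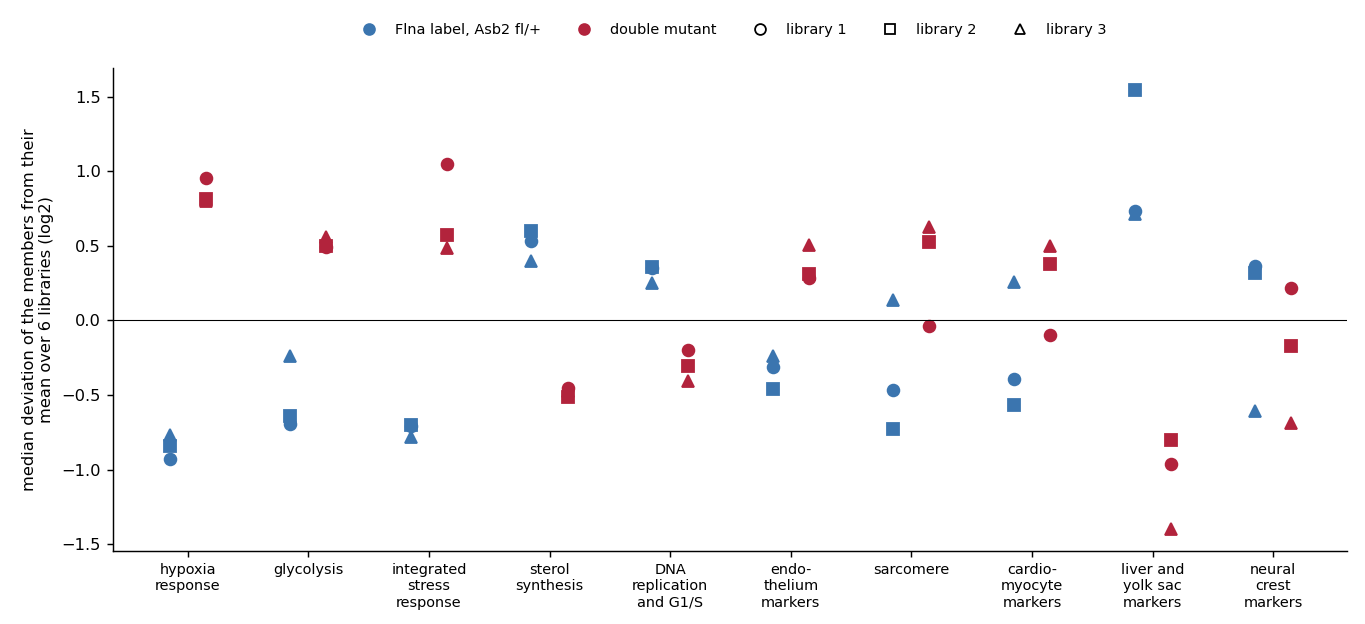
Median deviation of a list's genes from their mean over the 6 libraries, on the log2(CPM + 0.5) scale, for 10 lists, with 1 point per library. Hypoxia, stress response and sterol lists separate the groups without overlap, while in the sarcomere list heterozygote library 3 lies above double mutant library 1.

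Some members separated the groups in spite of that spread. Lmod2, which elongates actin filaments, was at 110.3, 139.6 and 149 CPM against 31.6, 28.7 and 47.9 CPM (log2 fold change 1.89, adjusted p = 0.000686, SE 0.20). Tcap, the titin cap at the Z disc, was at 102, 149.7 and 115 against 30.1, 28.9 and 43.3 CPM (log2 fold change 1.83, adjusted p = 0.000566, SE 0.19). Tnnt1, the slow skeletal troponin T that early hearts also express, was at 132, 146 and 136 against 39.3, 36.1 and 53.01 CPM (log2 fold change 1.70, adjusted p = 0.000162, SE 0.14). For all 3 the lowest double mutant library was above the highest heterozygote library. Titin itself, Ttn, stood at 1516, 2241 and 2754 against 344, 337 and 1262 CPM (log2 fold change 2.00, adjusted p = 0.0223, SE 0.51), with heterozygote library 3 close to double mutant library 1, and lost its call under 5 of 20 alternatives. Myh7, the main ventricular myosin of the embryo, was at 6267, 9925 and 10309 against 3126, 2697 and 5275 CPM (log2 fold change 1.28, adjusted p = 0.0131, SE 0.29), and the adjusted p was 0.0509 without double mutant library 2. The abundant Actc1, cardiac actin (0.58, adjusted p = 0.121), Myl7 (0.50, adjusted p = 0.173), Tnnt2 (0.43, adjusted p = 0.193), Tnni3 (-0.02, adjusted p = 0.934) and Myh6 (0.15, adjusted p = 0.682) did not pass and overlapped between groups.

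Calcium handling genes went both ways, with 7 of 30 higher and 3 lower, against 15.2% and 16.3% of all genes. The higher count was 4 without heterozygote library 1, heterozygote library 2 or double mutant library 2 and 12 without heterozygote library 3. Pln, the inhibitor of the calcium pump of the sarcoplasmic reticulum, stood at 30.7, 43.4 and 45.2 CPM against 109, 60.0 and 93.2 CPM (log2 fold change -1.10, adjusted p = 0.0113, SE 0.24). Casq2, the calcium store protein, was at 1.79, 2.14 and 1.39 against 9.11, 4.64 and 8.45 CPM (log2 fold change -1.76, adjusted p = 0.00303, SE 0.29), and Cav3, a muscle caveolin, at 3.05, 2.48 and 3.37 against 19.7, 10.55 and 16.2 CPM (log2 fold change -2.17, adjusted p = 0.00063, SE 0.25). These 3, the lower members of the list, were below every heterozygote library in every double mutant library, and 5 were lower without heterozygote library 2. Ryr2, the calcium release channel, was higher (1.22, adjusted p = 0.0195), and the pump Atp2a2 did not pass (0.36, adjusted p = 0.248).

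Natriuretic peptides and part of the trabeculation genes were higher, 7 of 21 with 0 lower (median 0.12), and 4 without heterozygote library 2. Nppb, B-type natriuretic peptide, was at 180.5, 206 and 242 CPM against 42.0, 40.5 and 76.7 CPM (log2 fold change 2.03, adjusted p = 0.00121, SE 0.24). Nppa, the atrial natriuretic peptide that marks trabecular muscle, was at 1257, 2166 and 1551 against 679, 464 and 735 CPM (log2 fold change 1.40, adjusted p = 0.00463, SE 0.24). Both were above the heterozygotes in all double mutant libraries. Erbb4, the neuregulin receptor, rose (1.10, adjusted p = 0.0302), while its ligand Nrg1 (-0.18, adjusted p = 0.627) and Bmp10 (-0.32, adjusted p = 0.293) did not pass. Of 34 cardiac transcription factors 2 rose and 3 fell, under the shares of all genes (15.2% and 16.3%). The rises were 8 without heterozygote library 3 and 1 without any other library except double mutant library 1. The falls were 1 without heterozygote library 1. The core factors Nkx2-5 (0.43), Gata4 (0.20) and Tbx5 (0.20) did not pass. Hand1, a factor of the left ventricle, was at 36.4, 37.3 and 44.9 against 74.7, 64.6 and 77.7 CPM (log2 fold change -0.87, adjusted p = 0.00134, SE 0.12), and Hand2 was lower as well (-0.43, adjusted p = 0.0176). In the second heart field list, 3 of 28 rose and 2 fell, also under those shares. Among the rises Fgf8 (1.18, adjusted p = 0.0358) was at the edge of the test, and its call was lost under 5 alternatives. The rises were 0 without double mutant library 2 and 1 without heterozygote library 1 or 2, and the falls 1 without heterozygote library 1 and 4 without heterozygote library 3.

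Endothelial genes were higher, 12 of 20 with 0 lower (median 0.66), against 15.2% of all genes. The summed level of these markers was 1806 to 2297 CPM in the double mutant and 1099 to 1362 CPM in the heterozygotes, so the ranges did not meet. Flt1, a VEGF receptor, was at 185, 167 and 196 CPM against 50.4, 52.1 and 65.1 CPM (log2 fold change 1.70, adjusted p = 6.8e-05, SE 0.12). Kdr, the main signalling receptor of VEGF, was at 260.1, 267 and 345 against 120.1, 115 and 148 CPM (log2 fold change 1.18, adjusted p = 0.000686, SE 0.14). Sox17 (1.81, adjusted p = 0.000566) and Sox7 (1.502, adjusted p = 0.000378), transcription factors of endothelium, rose, and Pecam1, an adhesion protein of all endothelium, went from 81.3, 67.3 and 92.3 to 147, 153 and 181 CPM (0.998, adjusted p = 0.00121). Markers that did not pass were Nfatc1 (0.76), Npr3 (0.42) and Emcn (0.27) of the endocardium, Tek (0.12), Fli1 (0.15), Plvap (0.28), Eng (0.36) and Cldn5 (-0.29). In the Notch list 4 of 21 rose, near the share of all genes (15.2%), and 1 fell. The lower count was 0 without heterozygote library 1 or 2 or double mutant library 1 or 2. The endothelial ligand Dll4 was at 31.4, 38.9 and 30.5 against 12.6, 15.2 and 12.7 CPM (log2 fold change 1.28, adjusted p = 0.000526, SE 0.14), and the endothelial receptor Notch4 rose too (1.18, adjusted p = 0.000458). Targets of the pathway did not pass, with Hey1 at 0.25, Hey2 at 0.54 and Hes1 at 0.15. Whether endothelial content accounts for these values was not tested.

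In the list for TGF-beta and BMP signals 14 of 47 genes rose and 2 fell (median 0.31), against 15.2% and 16.3% of all genes. Ctgf, a matricellular protein that both TGF-beta and YAP induce, was at 253, 266 and 324 CPM against 36.2, 46.7 and 55.7 CPM (log2 fold change 2.60, adjusted p = 6.8e-05, SE 0.16). Inhba, which encodes an activin subunit, was low but separate, at 6.25, 8.22 and 7.45 against 1.49, 0.615 and 0.551 CPM (log2 fold change 2.55, adjusted p = 0.000721, SE 0.30). Its heterozygote mean was 0.886 CPM, so it passed the minimum of 1 CPM only through the double mutant. The receptor gene Tgfbr2 rose (0.97, adjusted p = 0.00137). Id2 (-0.30, adjusted p = 0.0216) and Id3 (-0.53, adjusted p = 0.0336), targets of BMP, were the 2 that fell. It was 0 without heterozygote library 1, heterozygote library 2 or double mutant library 2, 1 without double mutant library 3, 5 without heterozygote library 3 and 4 without double mutant library 1. Of 20 YAP targets and pathway members, 9 rose and 2 fell (median 0.38). Cyr61 went from 38.6, 47.7 and 67.4 to 138, 118 and 165 CPM (1.47, adjusted p = 0.00225) and Ankrd1 from 370.4, 369 and 684 to 1132, 1206 and 1568 CPM (1.505, adjusted p = 0.00433). Yap1 itself did not pass (-0.05, adjusted p = 0.7), and its paralogue Wwtr1 rose (0.82, adjusted p = 0.00121).

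Genes of the actin cytoskeleton and focal adhesions, where filamins act, were higher in 17 of 42 cases and lower in 2, with a median of 0.32, and 9 were higher without heterozygote library 1, heterozygote library 2 or double mutant library 2. Itga1, an integrin of collagen and laminin, was at 59.7, 76.3 and 86.9 CPM against 25.9, 24.7 and 35.0 CPM (log2 fold change 1.37, adjusted p = 0.00114, SE 0.17). Tagln, an actin-binding protein of smooth and early cardiac muscle, was at 1207, 1749 and 1953 against 619, 629.8 and 1098 CPM (log2 fold change 1.09, adjusted p = 0.0177, SE 0.26). Talin (0.57 for Tln1) and the integrin-linked kinase Ilk (0.59) rose, while Actb (-0.15), Actg1 (0.01) and Vcl (0.26) did not pass. Cfl1 (-0.45, adjusted p = 0.0066), which severs actin filaments, and Lima1 (-0.58, adjusted p = 0.0224) fell.

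The extracellular matrix list went both ways, with 13 of 38 higher and 6 lower. Several genes of basement membranes rose. Hspg2, perlecan, was at 814, 999 and 1125 CPM against 331, 370.4 and 560.1 CPM (log2 fold change 1.24, adjusted p = 0.004, SE 0.21), and Nid1 (1.02), Lamb1 (0.80), Col4a1 (0.74) and Col4a2 (0.82) were higher, while Lama1 (-0.10) and Lamc1 (0.27) did not pass. Matrix genes of mesenchyme were among those that fell. Col3a1, a fibrillar collagen, was at 179, 119.7 and 131 against 700.5, 651 and 329 CPM (log2 fold change -1.91, adjusted p = 0.0034, SE 0.29), with heterozygote library 3 nearest to the double mutant, and Postn, periostin, was at 9.80, 3.95 and 2.18 against 37.5, 49.4 and 17.0 CPM (log2 fold change -2.69, adjusted p = 0.00963, SE 0.54). Col1a1 overlapped between groups (-0.90, adjusted p = 0.0907). The lower count was 12 without heterozygote library 3. Timp3, an inhibitor of matrix proteases bound to matrix, was at 149, 148 and 173 against 62.3, 55.9 and 63.5 CPM (log2 fold change 1.36, adjusted p = 8.27e-05, SE 0.10).

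Wnt genes were lower in 6 of 42 cases and higher in 3, at or under the shares of all genes (16.3% and 15.2%), with 3 lower without heterozygote library 1 or 2 and 13 without heterozygote library 3. Sfrp5, a secreted Wnt inhibitor of the venous pole and foregut, was at 18.5, 9.51 and 14.7 CPM against 37.1, 49.7 and 56.6 CPM (log2 fold change -1.74, adjusted p = 0.00228, SE 0.25). Dkk2 (-1.76, adjusted p = 0.0037) and Nkd1 (-0.82, adjusted p = 0.00161), both inhibitors of the pathway, were lower too. The 3 that rose were Dkk3 (1.121, adjusted p = 0.00562), a relative of the DKK inhibitors, and the receptors Fzd1 (0.70, adjusted p = 0.0117) and Fzd4 (0.41, adjusted p = 0.0422). Axin2, the common readout of canonical Wnt signalling, did not pass (-0.58, adjusted p = 0.0634).

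Immediate early genes, which respond within minutes to growth factors or handling, were higher in 12 of 16 cases and lower in 0 (median 0.78). Egr1 was at 15.6, 13.3 and 16.6 CPM against 5.97, 5.23 and 3.97 CPM (log2 fold change 1.51, adjusted p = 0.000988, SE 0.19), without overlap. Ier3 stood at 46.6, 33.4 and 46.4 against 3.64, 3.54 and 4.996 CPM (log2 fold change 3.22, adjusted p = 4.04e-05, SE 0.19), also without overlap. Cytosolic heat shock genes split, with 5 of 21 higher and 8 lower. Hsph1, a cofactor of HSP70, was at 90.1, 68.5 and 69.3 against 249, 219.9 and 228 CPM (log2 fold change -1.62, adjusted p = 9.39e-05, SE 0.12), and Hspa8, the constitutive HSP70, at 460.4, 418 and 425 against 755, 658 and 682 CPM (log2 fold change -0.68, adjusted p = 0.00158, SE 0.10). The 5 that rose were 0 without any 1 of heterozygote libraries 1 and 2 and double mutant library 3, 2 without double mutant library 2 and 8 without heterozygote library 3. Of 48 ribosomal protein genes 11 rose and 2 fell (median 0.22), and the 11 were 4 without heterozygote library 1 or double mutant library 2, 5 without heterozygote library 2 or double mutant library 1 and 23 without double mutant library 3. Ribosomal genes have many processed copies, so their counts are uncertain.

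Transcripts of primitive red cells were lower in the double mutant than in the heterozygotes. Of 27 markers 23 fell and 1 rose (median -2.25), and 20 to 23 fell with any library left out. Some, Klf1 among them, passed the minimum only through the heterozygotes, and with a minimum of 5 CPM 12 fell. Their summed level was 1115 to 1150 CPM in the double mutant, 3528 to 4489 CPM in the heterozygotes and 8058 to 8846 CPM in the controls. Hba-x, the embryonic alpha-type globin, was at 134, 127 and 97.0 CPM against 772, 1038 and 747 CPM (log2 fold change -2.83, adjusted p = 4.45e-05, SE 0.16). Slc4a1, the anion exchanger of the red cell membrane, was at 5.25, 4.47 and 5.03 against 43.6, 59.8 and 45.7 CPM (log2 fold change -3.20, adjusted p = 2.02e-05, SE 0.16), and Klf1, the erythroid master factor, at 0.453, 0.224 and 0.347 against 4.20, 8.73 and 7.64 CPM (log2 fold change -3.08, adjusted p = 0.000433, SE 0.32). All 3 were several times lower in every double mutant library than in any heterozygote library. Some globin genes are near-identical copies, so reads could be split between those, and their single values are uncertain. The single marker that rose was Tfrc, the transferrin receptor, which many dividing cells use (0.87, adjusted p = 0.0189). The letters AGATAA, which blood cell regulators of the GATA family can bind, were in 7 of 19 promoters found (36.8%), against 11.4% of all genes and 6.98% of the tested genes.

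Many transcripts of liver bud or yolk sac endoderm were far lower in the double mutant, and some had no read there. Of 29 markers 18 were tested, and several of these passed the minimum of 1 CPM only through the heterozygotes, so the count of 10 lower and 1 higher is a description (2 lower with a minimum of 5 CPM). Afp, alpha-fetoprotein, was at 0, 0.646 and 0.644 CPM in the double mutant and 93.7, 372 and 134 CPM in the heterozygotes (log2 fold change -7.59, adjusted p = 0.000192, SE 0.54). It also varied within genotypes outside this comparison, at 158, 3.13 and 200.01 CPM in the controls and 69.9, 1.06 and 41.6 CPM in the Asb2 deletion group. Hnf4a, a transcription factor of endoderm, had 0 reads in the 3 double mutant libraries and 5.21, 12.6 and 5.07 CPM in the heterozygotes, at least 311-fold lower by a floor of 3 reads over the group. Ambp likewise had 0 reads against 7.16, 36.3 and 11.8 CPM, at least 735-fold lower. Fgb, a fibrinogen chain, had 1 read against 8.86, 31.9 and 15.5 CPM, a ratio of 2235 with a counting interval of 400.7 to 88330. Fibrinogen gamma, Fgg, also had 1 read, against 2.25, 11.96 and 3.64 CPM, a ratio of 712.5 with an interval of 127.4 to 28190. The intervals and the floor cover counting error only. Apoe, which many tissues make, rose (1.03, adjusted p = 0.0021), and Serpinf2, a plasma protease inhibitor, was at 0.262, 0 and 0.0495 against 13.4, 48.7 and 20.8 CPM (-5.36, adjusted p = 0.000219). Ttr, transthyretin (-4.01, adjusted p = 0.000198), Apoa1 (-2.99, adjusted p = 0.00257) and, outside the list, Pklr, the pyruvate kinase of liver and red cells (-2.97, adjusted p = 0.00033), were also among the 12 largest falls. Each, like Afp and Serpinf2, was under 1 CPM in every double mutant library and passed the minimum only through the heterozygotes. The summed level of the endoderm list was 373 to 502.6 CPM in the double mutant and 327.2 to 756.6 CPM in the heterozygotes, with Apoe counted in both. The part of endoderm content in these values was not tested.

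Pharyngeal and neural crest markers differed more between libraries of a group than between groups. Pharyngeal markers summed to 393.6 to 794.7 CPM in the double mutant and 287 to 599.5 CPM in the heterozygotes, and neural crest markers to 526 to 856.9 and 552.3 to 907.8 CPM. The third library of each group was the lowest of its group in the median of both lists, at -0.87 (double mutant) and -1.04 (heterozygote) for the pharyngeal list and -0.69 and -0.61 for the neural crest list. Of 23 pharyngeal markers 2 rose (6 without double mutant library 3 and 1 without heterozygote library 1, double mutant library 1 or double mutant library 2), Krt18 (0.67, adjusted p = 0.0289) and Pax8 (1.71, adjusted p = 0.0063), and of 24 neural crest markers 2 fell (0 without heterozygote library 2 and 7 without heterozygote library 3), Msx1 (-0.94, adjusted p = 0.0148) and Alx4 (-1.71, adjusted p = 0.0443). Of 20 alternatives, Krt18 lost its call under 5, Alx4 under 7 and Msx1 under 2. Pax8 averaged 0.74 CPM in the heterozygotes and passed the minimum of 1 CPM only through the double mutant. Of 12 epicardial markers Krt19 rose, from 65.0, 73.9 and 110.2 to 637, 807 and 699.9 CPM (log2 fold change 3.13, adjusted p = 7.23e-05, SE 0.19), and 3 fell, namely Wt1 (-0.62, adjusted p = 0.0324), Tcf21 (-1.01, adjusted p = 0.0243) and Lrrn4 (-0.90, adjusted p = 0.00259). The 3 were 1 without heterozygote library 1, heterozygote library 2 or double mutant library 2 and 5 without heterozygote library 3. In the joint fit of the 4 groups none of the 3 was called. Tcf21 lost its call under 6 alternatives and Lrrn4 under 1. The epicardial list summed to 896.5 to 963.9 CPM in the double mutant and 351.2 to 439.9 CPM in the heterozygotes, although its median fold change was -0.63. Krt19, which other epithelia also make, accounts for most of that sum in the double mutant. Of 12 neural tube markers 2 rose, Nes and Stmn4, and 2 fell, Dcx and Tubb3, all given above. Of 8 markers of white blood cells and their progenitors Kit rose (1.89, adjusted p = 9.19e-05) and Itga2b fell (-0.80, adjusted p = 0.00589).

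The same 2 Asb2 genotypes without the Flna label form the other comparison in the series, and it shares no library with this one. There, the Asb2 deletion group differed from the controls in 3033 of 14034 genes (21.6%), 1505 higher (10.7%) and 1528 lower (10.9%). Of 13778 genes tested in both comparisons, 974 were higher in both and 949 lower in both. These 1923 genes are 44% of the 4369 called in the Flna-labelled comparison and 64.7% of the 2973 called without the label. Calls in opposite directions were made for 2 genes, Cebpa and Ebf1, and Ebf1 lost its call in the Flna-labelled comparison under 5 of 20 alternatives, with an adjusted p of up to 0.0791 (limma without heterozygote library 2). Over genes, the fold changes correlated at 0.707 (Pearson) and 0.692 (Spearman), which describes genes and not replicates. Both comparisons went through the same processing, and erythroid markers fell in both. Xist varied more without the label, at 0.823, 302 and 106 CPM in the controls and 571, 0.38 and 377 CPM in the Asb2 deletion group. The part of embryo sex in the comparison without the label, and in differences between the comparisons, was not tested.

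**Figure D4:**
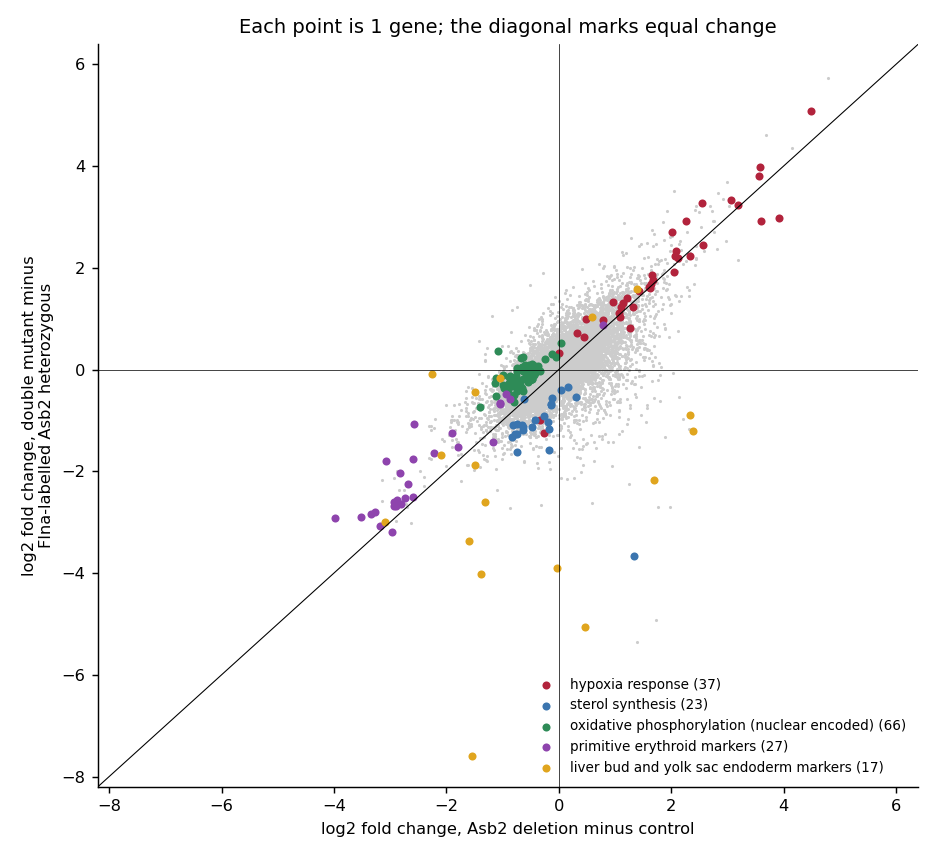
Log2 fold change of each gene in the double mutant over the heterozygotes (vertical axis) against that in the Asb2 deletion group over the controls (horizontal axis), 1 point per gene, with 5 lists coloured. Points follow the diagonal with a Pearson correlation of 0.707 over 13778 genes, and most of the sterol list lies under it.

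Most of the lists described had medians of the same sign in both comparisons, and the gap between the medians varied. Hypoxia genes had a median of 1.69 with the Flna label and 1.65 without it, glycolysis 1.04 and 0.83, and the integrated stress response 1.30 and 0.98. Erythroid markers had medians of -2.25 and -2.74. For Egln3 the log2 fold changes were 3.23 and 3.19, for Eno2 4.35 and 4.14, and for Trib3 3.98 and 3.59. Sterol synthesis had 23 of 23 lower (median -1.09) with the label and 9 of 23 lower (-0.42) without. G1/S genes had 28 and 12 of 35 lower, with medians of -0.63 and -0.41, and mitosis genes 16 and 0 of 26 lower. Nuclear genes of oxidative phosphorylation had 11 of 66 lower (median -0.14) with the label and 55 of 66 lower (-0.66) without. Sarcomere genes had 19 higher and 0 lower of 41 (0.74) with it and 4 higher and 2 lower of 42 (0.05) without. The summed sarcomere level was 47440 to 73010 CPM in the double mutant and 30780 to 56330 CPM in the heterozygotes. It was 49440 to 74610 CPM in the controls and 41290 to 66210 CPM in the Asb2 deletion group. Nuclear genes of oxidative phosphorylation summed to 14330 to 16050 CPM in the double mutant and 15470 to 18750 CPM in the heterozygotes. The controls were above both, at 19610 to 23580 CPM, and the Asb2 deletion group was at 12330 to 16000 CPM.

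**Figure D5:**
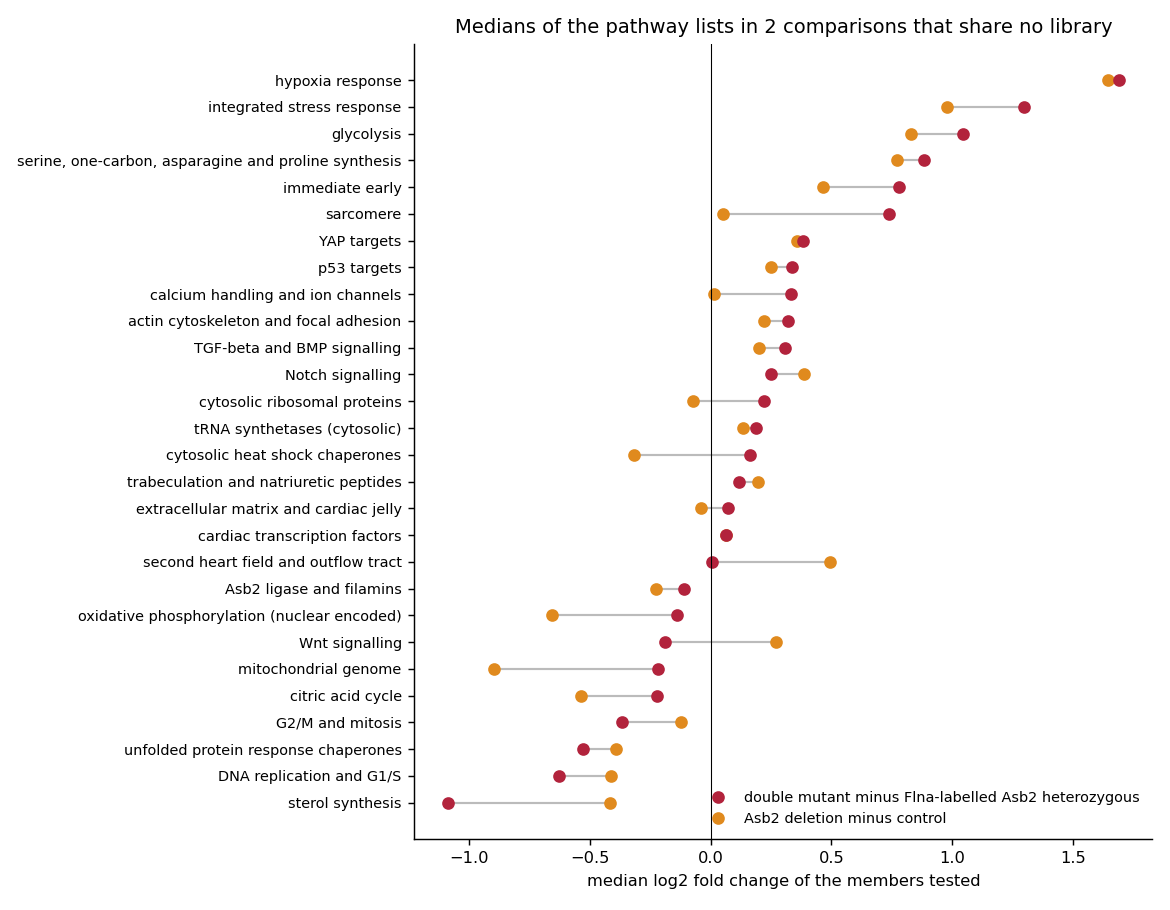
Median log2 fold change of 28 pathway lists in both comparisons, 1 row per list with a mark for each comparison. The marks of hypoxia nearly coincide (1.69 and 1.65), and those of sterol synthesis (-1.09 and -0.42), oxidative phosphorylation and sarcomere lie further apart.

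The difference between the fold changes with and without the label was tested gene by gene in a fit of all 12 libraries, and 0 of 13963 genes passed by limma, with 1360 at an unadjusted p under 0.05 (9.74%). edgeR called 0 (1387 unadjusted) and DESeq2 60 (1581 unadjusted). Without Asb2 deletion library 2 limma called 6, and without heterozygote library 2 it called 1. Asb2 deletion library 2 was also the lowest of its group in Xist, as given above. limma with library weights called 3, Reln, Cebpa and Scd1, and these were also among the calls of DESeq2 and of limma without Asb2 deletion library 2. DESeq2 also called Ebf1, Tnnt1, Hmgcs1, Asb4, mt-Nd1 and the endoderm genes Fgb, Ambp and Hnf4a, and leaving out Asb2 deletion library 2 also gave Sfrp5 and Ambp. A difference with the label is therefore called for these genes by some fits and not by the main test. Unadjusted p-values under 0.05 were spread unevenly over the lists, which is given as a description. In oxidative phosphorylation 48 of 66 genes had one, all with a higher value in the Flna-labelled comparison (median difference 0.53). In sterol synthesis it was 17 of 23, all lower (-0.52), and in the sarcomere list 13 of 41, all higher (0.68). In hypoxia it was 2 of 37, in glycolysis 0 of 26 and in the integrated stress response 1 of 21. The lowest adjusted p of any gene in the main test was 0.395, and for Reln it was 9.25e-07 by DESeq2, 0.0219 with library weights and 6.88e-05 without Asb2 deletion library 2, by limma.

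Some genes with the smallest p for this difference are given as levels. Cebpa, which encodes a regulator of liver and fat genes, was at 2.19, 0.944 and 0.842 CPM in the double mutant and 5.62, 10.49 and 6.72 CPM in the heterozygotes, and at 4.32, 0.9499 and 4.71 CPM in the Asb2 deletion group and 0.230, 0.631 and 0.821 CPM in the controls (difference -3.87, SE 0.66, unadjusted p = 4.97e-05). It fell with the label and rose without it, by separate tests. Ebf1, a factor of mesenchyme and blood, went the other way, at 20.6, 15.0 and 14.5 against 10.6, 8.58 and 11.5 CPM and 10.4, 8.63 and 9.26 against 14.6, 15.0 and 13.7 CPM (difference 1.27, SE 0.24, unadjusted p = 0.00012). Reln, a secreted matrix protein, was at 5.41, 4.17 and 5.23 against 23.3, 39.3 and 45.1 CPM with the label and 65.6, 10.53 and 49.8 against 10.2, 5.79 and 8.28 CPM without (difference -4.68, SE 0.76, unadjusted p = 5.66e-05), and the second Asb2 deletion library stood near the controls. The log2 fold change of Tnnt1 was 1.70 with the label and 0.46 without (difference 1.23, SE 0.26, unadjusted p = 0.000379). The lipid desaturase gene Scd1 was at 13.7, 12.6 and 16.2 against 38.5, 55.2 and 35.0 CPM with the label and at 57.5, 22.2 and 38.9 against 29.4, 18.4 and 22.6 CPM without (difference -2.21, SE 0.41, unadjusted p = 0.000148).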

How the data were processed

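RNA from embryonic hearts was extracted with an RNeasy Micro kit and sequenced on an Illumina instrument, per the labels' protocols. The submitters' processing notes name STAR, HTSeq, edgeR and mm10, with no versions or order. The authors deposited a normalized signal per gene and library, here called CPM, whose columns sum to 942334 to 1051801. 1 read was worth 0.0239 to 0.0367 CPM in the 6 libraries compared, and all values were whole multiples of 1 read within 0.01 read, so reads were recovered for edgeR and DESeq2 as alternatives. The table also held gene lengths deposited by the authors, used only to remove a length trend. 12 columns that no label names were not used. Plain CPM had been assumed when the tests were chosen.

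The main test was limma 3.58.1 (trend, robust) in R 4.3.3 on log2(CPM + 0.5), for genes averaging 1 CPM or more in the 6 libraries, adjusted by the Benjamini-Hochberg method. The difference between both comparisons was a contrast over all 12 libraries. edgeR 4.0.16 and DESeq2 1.42.0 ran on the recovered reads. The scripts were tested on simulated data. Lists are described by counts and medians, and no set test was made. Gene coordinates are from GENCODE M21, which held 99.1% of the genes, and promoter windows of 250 bases before the start site from RefSeq on GRCm38.p6.

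Members and lists were chosen with earlier results of these data known. Genes were named by a rule: Asb2 and the filamins, the 12 largest rises and 12 largest falls without overlap and reaching 5 CPM in the higher group, up to 3 called members per list with the smallest p, and 5 genes each way for the difference between comparisons. Other list members were named to show those that did not pass or other roles, after their values were seen. Replicate numbers were not taken to pair the libraries, so the block stands only among the alternatives. These were other pseudocounts, filters, scalings, fits and tools, an Xist covariate and leaving out each library. Some members are not reported here.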

Additional observations from a re-analysis of the deposited data

How the results depend on the processing

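Of 125 named genes called, 107 kept the call under all 20 alternatives for the Flna-labelled comparison, 18 lost it under at least 1 and 0 reversed. The total of 4383 ranged from 2708 to 4614 with 1 library left out, and the counts that rose and fell from 1314 to 2280 and from 1352 to 2334. edgeR called 4281, DESeq2 4966, limma with library weights 6140 and a fit with Xist as a covariate 3545. With 1 library left out, Asb2 ranged from -0.26 to 0.14 (without heterozygote library 3), and Flna to -0.03 with the length trend removed, where neither was called. Same-numbered libraries correlated at 0.282, 0.035 and 0.432 in their deviations, the last being the highest of all pairs. Pairs with unlike numbers ranged from -0.445 to 0.32. The numbers were not taken to pair the libraries, and whether some were paired is not in the labels and was not tested. The fit with a replicate block called 5479, and double mutant library 1 correlated best with heterozygote library 2 (0.32).

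Alternatives for Asb2 deletion against control were chosen after seeing the data. Its 3033 calls ranged from 1581 to 2508 with 1 library left out (1771 without control 1, 1581 without control 2 and 2004 without Asb2 deletion library 2) and were 1557 with the replicate block. For the difference between comparisons, 0 calls became 3 with library weights and 60 with DESeq2, and 0 to 6 with 1 library left out. The cause was not tested in these cases. Of 1520 list counts under alternatives, 1249 were within 1.5 times. Depth limits the genes near 1 CPM.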

Other observations

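Some genes outside the lists were looked at after their values were seen, and they are given with no test of the group. Hox genes, which set position along the body axis, had 12 tested members, of which 4 fell and 0 rose (median log2 fold change -1.16, 11 of 12 negative). Hoxc5 (-2.88, adjusted p = 0.00732), Hoxd3 (-2.63, adjusted p = 0.0148), Hoxc4 (-2.01, adjusted p = 0.0265) and Hoxa5 (-1.88, adjusted p = 0.0288) were those that fell. Hoxc5 (0.501, 0 and 0.347 CPM), Hoxd3 (0.239, 0.894 and 0.471 CPM) and Hoxc4 (0.572, 1.14 and 0.347 CPM) were near or under 1 CPM in the double mutant and passed the minimum only through the heterozygotes, so their calls and the count are a description. The summed level of the family was 62.9, 78.7 and 45.9 CPM in the double mutant and 153, 191 and 54.6 CPM in the heterozygotes, so heterozygote library 3 lay within the range of the double mutant. Without the Flna label 2 of 11 rose and 0 fell in the Asb2 deletion group (median 0.67), with sums of 143, 69.3 and 72.3 CPM against 19.8, 77.4 and 44.5 CPM in the controls.

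Of 9 tested genes of the mouse major histocompatibility complex, H2-Ab1 (3.22, adjusted p = 6.8e-05) and H2-K1 (2.37, adjusted p = 7.23e-05) rose and H2-Q2 fell (-1.57, adjusted p = 0.00204). H2-K1, a class I antigen-presenting molecule, was at 24.995, 30.8 and 34.3 CPM in the double mutant and 5.19, 6.18 and 4.85 CPM in the heterozygotes. Class I genes of the complex are close copies of each other, so the authors' counting could split reads between those. The nuclear noncoding RNA Malat1, a neighbour of Neat1 in the genome, was at 632, 776 and 846 CPM against 110.4, 117 and 265 CPM (log2 fold change 2.30, adjusted p = 0.00231, SE 0.32). Cox4i2, the hypoxia-associated isoform of a cytochrome c oxidase subunit, was at 86.0, 97.7 and 71.0 against 7.03, 8.33 and 10.9 CPM (log2 fold change 3.21, adjusted p = 3.55e-05, SE 0.18). Pik3ip1, an inhibitor of PI3 kinase, was at 37.9, 42.6 and 44.6 against 5.77, 3.91 and 3.71 CPM (log2 fold change 3.11, adjusted p = 3.81e-05, SE 0.18). The groups did not overlap for these 3 genes.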
